A study of Homo sapiens with 14 samples.

Results

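The 10 genes described here are HMOX1, SLC7A11, GCLM, GCLC, NQO1, TXNRD1, SRXN1, OSGIN1, FTH1 and FTL, which are targets of the transcription factor NRF2, and they were picked by gene symbol out of 28307 genes in the deposited tables. RNA was sequenced from A375 cells, a human melanoma line, in 14 polyA-selected libraries of 5 groups. The edited gene was ZC3H18, called Z18, which encodes a zinc finger protein of nuclear RNA surveillance. Bulk Z18 CRISPR (n = 3) was a mixed population of transiently transfected and antibiotic-selected cells given Cas9 with 1 guide RNA, and bulk control (n = 3) was handled alike with a Cas9 vector that held no guide. The other 8 libraries were clones of single cells obtained by limiting dilution, and were Z18 trunc/+ (heterozygous for a truncating mutation, made with a guide and a donor DNA template, n = 3), Z18 -/+ (heterozygous for loss of function, made with other guides, n = 3) or Z18 WT (n = 2).

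Each clone was 1 library, and the trunc/+ clones did not all carry the same truncating mutation, so a clone and its genotype cannot be told apart within a group. The samples were not stated to come from separate experiments in every group, and p-values measure the spread between these libraries, which may be technical in part. The set was chosen from measured values of these libraries: HMOX1 and SLC7A11 had been seen to differ between bulk CRISPR and bulk control, and the other 8 were added as genes of the same pathway. The values of all 10 in that comparison, and those of HMOX1 and SLC7A11 wherever the same bulk libraries enter, are therefore given as a description, with no test.

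NRF2, the product of NFE2L2, is held at low level by KEAP1, which hands it to the CUL3 ubiquitin ligase for degradation. When oxidants or electrophiles modify KEAP1, NRF2 builds up, pairs with small MAF proteins and switches on genes with an antioxidant response element, and the haem-binding repressor BACH1 competes for the same elements, HMOX1 above all. The targets make glutathione, recycle thioredoxin, reduce quinones, break down haem and store the iron that haem releases.

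The antioxidant response element core was searched for in the promoters of the set, because NRF2 acts through this element. The RefSeq table of promoters (GRCh38.p14, 250 bases before to 50 bases after each start, 300 bases in all) held 7 of the 10 genes, namely GCLM, GCLC, NQO1, TXNRD1, SRXN1, OSGIN1 and FTL, and not HMOX1, SLC7A11 or FTH1. The letters TGACNNNGC were searched on both strands, and a match on the opposite strand stands below as its reverse complement. They can overlap an AP-1 site, TGANTCA, with which they share their first bases. The 7 genes had 8 promoters in the table, with 2 for TXNRD1. Matches lay in 3 of these 8 promoters, those of GCLM and TXNRD1, against 4687 of all 35116 promoters in the table (13.3%). Bases outside these 300 were not searched, so a promoter without a match does not show that its gene lacks the element. The sequences below show the matches in capitals with the bases around them, and a match is a description of the letters and not a measured binding site.
GCLM, chr1:93909436-93909484, minus strand: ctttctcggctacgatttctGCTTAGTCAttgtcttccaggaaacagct
TXNRD1, upstream start, chr12:104215660-104215708, plus strand: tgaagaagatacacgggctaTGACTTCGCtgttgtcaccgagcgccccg
TXNRD1, upstream start, chr12:104215751-104215799, plus strand: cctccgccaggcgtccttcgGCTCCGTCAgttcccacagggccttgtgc
TXNRD1, downstream start, chr12:104286910-104286958, plus strand: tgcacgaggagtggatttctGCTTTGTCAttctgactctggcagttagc

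The libraries held 15615675 to 33018360 aligned fragments, and bulk controls 2 and 3 (18531793 and 15615675) were among the 3 shallowest. The spread of log2(FPKM + 1) between replicates, as the median over the 10 genes, was an SD of 0.170 in bulk CRISPR, 0.493 in bulk control, 0.550 in trunc/+, 0.427 in -/+ and 0.211 in WT. The targeted gene ZC3H18 stood at 10.4, 11.9 and 12.8 FPKM in bulk CRISPR and at 38.1, 13.9 and 48.7 FPKM in bulk control, so that bulk control 2 lay close to the edited libraries. In the clones it stood at 14.3, 13.98 and 8.70 FPKM in trunc/+, at 16.2, 17.1 and 16.1 FPKM in -/+ and at 23.5 and 21.97 FPKM in WT. Of 9 melanocyte lineage markers, 4 reached 1 FPKM in each group, MLANA and TYR were listed at 0 in every library, and the 9 summed to 34.5 to 42.7 FPKM in bulk CRISPR, 17.7 to 31.5 in bulk control, 88.5 to 431 in trunc/+, 67.9 to 477 in -/+ and 129 to 369 in WT. All 10 genes of the set passed the filter on low values in every fit (at least 1 FPKM in 3 bulk libraries, or in 2 libraries of the other fits).

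HMOX1, at chr22:35381096-35394207 on the plus strand (hg38), encodes haem oxygenase 1, the inducible enzyme that opens haem into biliverdin, carbon monoxide and iron. It stood at 392, 572 and 408 FPKM in bulk CRISPR, against 73.0, 38.5 and 31.0 FPKM in bulk control. In the clones it stood at 6.31, 13.7 and 6.24 FPKM in trunc/+, at 5.13, 12.5 and 17.6 FPKM in -/+ and at 6.21 and 4.19 FPKM in WT. The 3 bulk CRISPR libraries thus lay above all others, the 3 bulk controls lay above every clone, and no 2 of these 3 blocks overlapped. The log2 fold change (log2FC) on the log2(FPKM + 1) scale was 3.31 (SE 0.34) for bulk CRISPR against bulk control, with means of 457 ± 99.7 and 47.5 ± 22.4 FPKM (SD, n = 3 each), a ratio of 9.63. The bulk CRISPR mean was 72.9 times the median of the 8 clones, and the bulk control mean was 7.57 times that median.

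SLC7A11, at chr4:138164097-138242349 on the minus strand, encodes the transport subunit of the cystine and glutamate exchanger, which supplies the cysteine for glutathione. It stood at 11.1, 14.8 and 12.5 FPKM in bulk CRISPR, against 4.03, 2.31 and 2.83 FPKM in bulk control. In the clones it stood at 18.9, 7.69 and 10.6 FPKM in trunc/+, at 9.09, 10.5 and 7.02 FPKM in -/+ and at 11.3 and 9.36 FPKM in WT. The log2FC was 1.78 (SE 0.26) for bulk CRISPR against bulk control, a ratio of means of 4.19. The order of the libraries was not that of HMOX1: none of the 3 bulk CRISPR libraries lay above all clones, and all 3 bulk controls lay below all clones. The bulk CRISPR mean was 1.29 times the median of the 8 clones and the bulk control mean 0.308 times that median.

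**Figure D1:**
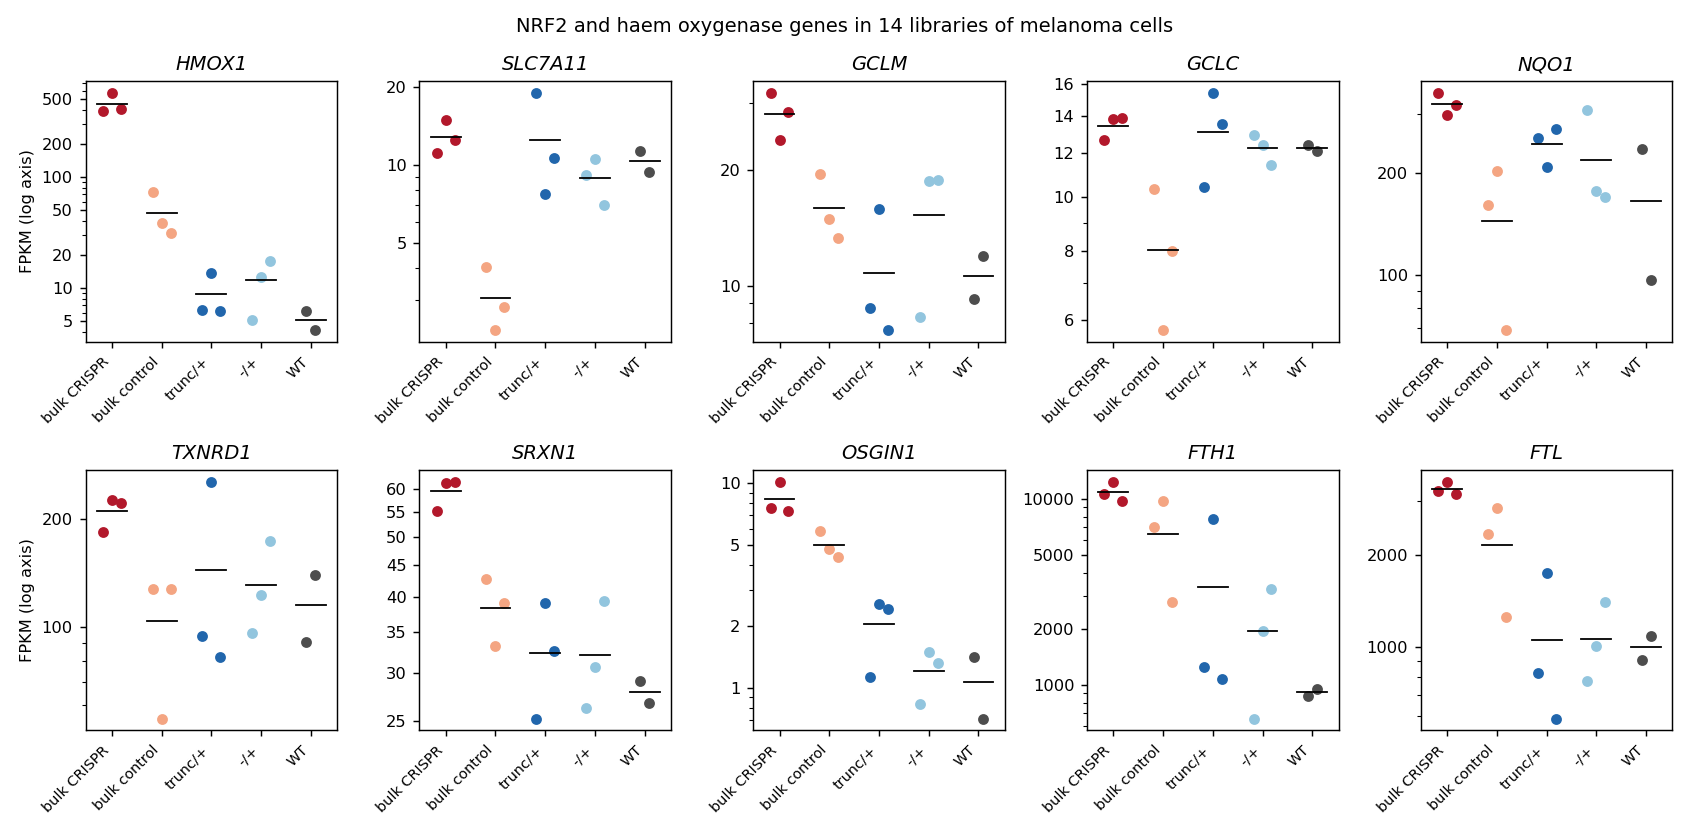
FPKM of each of the 10 genes on a log axis in bulk CRISPR, bulk control, trunc/+, -/+ and WT, with 1 point per library and the group mean as a bar. HMOX1 falls into 3 blocks, bulk CRISPR at 392 to 572 FPKM, bulk control at 31.0 to 73.0 FPKM and the clones at 4.19 to 17.6 FPKM, whereas SLC7A11 is low in bulk control alone.

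Glutathione synthesis begins with glutamate-cysteine ligase, made of the catalytic subunit GCLC (chr6:53497341-53545101, minus strand) and the modifier subunit GCLM (chr1:93885200-93909598, minus strand). GCLM stood at 31.9, 24.0 and 28.5 FPKM in bulk CRISPR, at 19.6, 14.9 and 13.3 FPKM in bulk control and between 7.68 and 18.9 FPKM in the clones. GCLC stood at 12.7, 13.9 and 13.9 FPKM in bulk CRISPR, against 10.3, 5.76 and 7.99 FPKM in bulk control. The clones held GCLC between 10.4 and 15.4 FPKM, so that it followed the order of SLC7A11, with bulk CRISPR inside the range of the clones and all 3 bulk controls below it. The log2FC between bulk CRISPR and bulk control was 0.79 (SE 0.23) for GCLM and 0.71 (SE 0.25) for GCLC.

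NQO1 (chr16:69709401-69726560, minus strand) reduces quinones with NADH or NADPH. It stood at 345, 296 and 318 FPKM in bulk CRISPR, against 161, 204 and 69.1 FPKM in bulk control, a log2FC of 1.27 (SE 0.38). TXNRD1 (chr12:104215779-104350307, plus strand), the cytosolic thioredoxin reductase, stood at 185, 227 and 223 FPKM in bulk CRISPR, against 127, 55.1 and 128 FPKM in bulk control, a log2FC of 1.12 (SE 0.34). Both genes reached bulk CRISPR levels in single clones, NQO1 at 307 FPKM in -/+ 1 and TXNRD1 at 256 FPKM in trunc/+ 2. SRXN1 (chr20:646624-653200, minus strand), which repairs over-oxidized peroxiredoxins, had the smallest log2FC, with 55.3, 61.3 and 61.7 FPKM in bulk CRISPR, 42.8, 33.2 and 39.0 FPKM in bulk control and a value of 0.63 (SE 0.20). OSGIN1 (chr16:83953240-83966332, plus strand), a growth inhibitor induced by oxidative stress, was the lowest of the set in bulk CRISPR, at 7.54, 10.2 and 7.33 FPKM. It stood at 5.81, 4.76 and 4.36 FPKM in bulk control, where SLC7A11 was lower, and its log2FC was 0.64 (SE 0.24). In the clones OSGIN1 held only 0.709 to 2.58 FPKM, so bulk control sat between bulk CRISPR and the clones, as for HMOX1.

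Ferritin stores iron in a shell of heavy chains (FTH1, chr11:61964285-61967634, minus strand), which oxidize the iron, and light chains (FTL, chr19:48965309-48966879, plus strand). FTH1 stood at 10548, 12344 and 9737 FPKM in bulk CRISPR, against 7002, 9684 and 2778 FPKM in bulk control, a log2FC of 0.92 (SE 0.54). This gene alone took 2.04% to 2.58% of all TPM in bulk CRISPR, 0.619% to 1.51% in bulk control, 0.236% to 1.74% in trunc/+, 0.150% to 0.714% in -/+ and 0.190% to 0.208% in WT. FTL stood at 3218, 3458 and 3145 FPKM in bulk CRISPR, against 2329, 2842 and 1260 FPKM in bulk control, a log2FC of 0.69 (SE 0.39). Both ferritin genes have processed pseudogenes elsewhere in the genome with near-identical sequence, so reads may have been shared between copies and these levels are uncertain to that extent. In bulk control 3 both chains were at their bulk minimum, and without that library the log2FC was 0.39 for FTH1 and 0.35 for FTL.

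For all 10 genes every bulk CRISPR library exceeded every bulk control, as did 21.8% of the 12114 genes tested. Over all genes 0.19% were higher at an adjusted p of 0.05 (limma), and no call is given for the members. The median log2FC of the set was 0.85, against 0.18 over all genes tested, and it lay between 0.70 and 1.00 when each library was left out in turn. Without bulk control 2, the library with low ZC3H18, the log2FC was 3.22 for HMOX1, 1.64 for SLC7A11, 1.30 for FTH1 and 0.72 for TXNRD1. Without bulk control 3 that of NQO1 was 0.81. As these are RNA levels of populations, more cells with the RNA and more RNA per cell cannot be told apart.

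Other genes differed between the bulk groups beside the set. Of 23 interferon-stimulated genes tested, 9 fell and 0 rose (limma), where 19 of all 12114 genes tested fell and 0.19% rose. IFI6 averaged 17.96 ± 1.63 FPKM in bulk CRISPR and 1013 ± 521 FPKM in bulk control, and the summed FPKM of 24 in the files was 409 to 434 in bulk CRISPR, against 1290 to 2263 in bulk control. In bulk control against WT 18 of 24 were higher (5.28% of all genes), and in the clones 0 of 21 passed, with 1, 0 and 3 higher at an unadjusted p under 0.05 in trunc/+ against WT, -/+ against WT and trunc/+ against -/+. That of 7 epithelial markers was 416 to 542 in bulk CRISPR, against 717 to 1113 in bulk control, with 2 of 4 tested lower, KRT7 and KRT8, the last at 46.7 ± 8.42 FPKM in bulk CRISPR and 176 ± 37.1 FPKM in bulk control. The summed FPKM of 7 fibroblast markers was 7.59 to 9.06 in bulk CRISPR and 2.61 to 3.36 in bulk control, with 0 of 2 tested passing (limma) and both higher at an unadjusted p under 0.05. The 7 macrophage markers, from cells rich in haem oxygenase, summed to at most 2.98 FPKM in any library, with AIF1 and TYROBP at 0 in every group, and 7 erythroid markers to at most 1.47 FPKM. Of 4 melanocyte lineage markers tested 0 passed (limma), with 1 higher at an unadjusted p under 0.05, SOX10. The part of the interferon, epithelial, fibroblast and melanocyte genes and of the shallower depth of the bulk controls in the levels of the set was not tested.

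The order of the set can be read against the clones, which were not used to choose it. No member passed the test between clone groups. In trunc/+ against WT 0 of 10 passed an adjusted p of 0.05 (limma over 12904 genes, of which 0.00775% passed), and none had an unadjusted p under 0.05, the lowest being 0.112, while 3.29% of all genes were higher and 4.30% lower at that level. In -/+ against WT 0 of 10 passed (background 0.00775%), with a lowest unadjusted p of 0.105 (below 0.05 before adjustment, 0.713% of all genes were higher and 1.11% lower), and in trunc/+ against -/+ 0 of 10 passed (background 0.0%), with a lowest unadjusted p of 0.150 (3.12% of all genes higher and 3.16% lower). The median log2FC of the set was 0.17 in trunc/+ against WT, 0.18 in -/+ against WT and 0.04 in trunc/+ against -/+, beside -0.02, -0.02 and -0.0014 over all genes tested. With 3 clones against 2 or 3 these comparisons had wide errors, and a missed threshold does not show that the levels were alike.

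HMOX1 averaged 8.76 ± 4.30 FPKM in trunc/+ and 5.20 ± 1.43 FPKM in WT (log2FC 0.59, SE 0.50, limma adjusted p = 0.786). It averaged 11.8 ± 6.29 FPKM in -/+, against the same 5.20 FPKM in WT (log2FC 0.92, SE 0.50, limma adjusted p = 1). All 3 trunc/+ clones lay above both WT clones, though trunc/+ 3, at 6.24 FPKM, was almost level with WT 1, at 6.21 FPKM. FTH1 was the other gene with that order, which 10.6% of all genes tested had: its trunc/+ clones stood at 1245, 7744 and 1077 FPKM, against 868 and 946 FPKM in WT (log2FC 1.27, SE 0.93, limma adjusted p = 0.755). The -/+ clones held FTH1 at 656, 1935 and 3264 FPKM and overlapped both other groups. Most of the trunc/+ excess came from 1 clone, and without trunc/+ 2 the log2FC of FTH1 against WT was 0.35.

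SLC7A11 did not follow HMOX1 among the clones. It averaged 12.4 ± 5.82 FPKM in trunc/+, 8.86 ± 1.74 FPKM in -/+ and 10.3 ± 1.38 FPKM in WT, with trunc/+ against -/+ at a log2FC of 0.37 (SE 0.30, limma adjusted p = 0.863). GCLC averaged 13.1 ± 2.52 FPKM in trunc/+, 12.3 ± 0.780 FPKM in -/+ and 12.3 ± 0.212 FPKM in WT, with log2FC of 0.07 (SE 0.17) in trunc/+ against WT and -0.0036 (SE 0.17) in -/+ against WT. The log2FC farthest from 0 between the 2 edited clone groups was that of GCLM, which averaged 10.8 ± 4.46 FPKM in trunc/+ and 15.3 ± 6.08 FPKM in -/+ (log2FC -0.45, SE 0.36, limma adjusted p = 0.863).

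**Figure D2:**
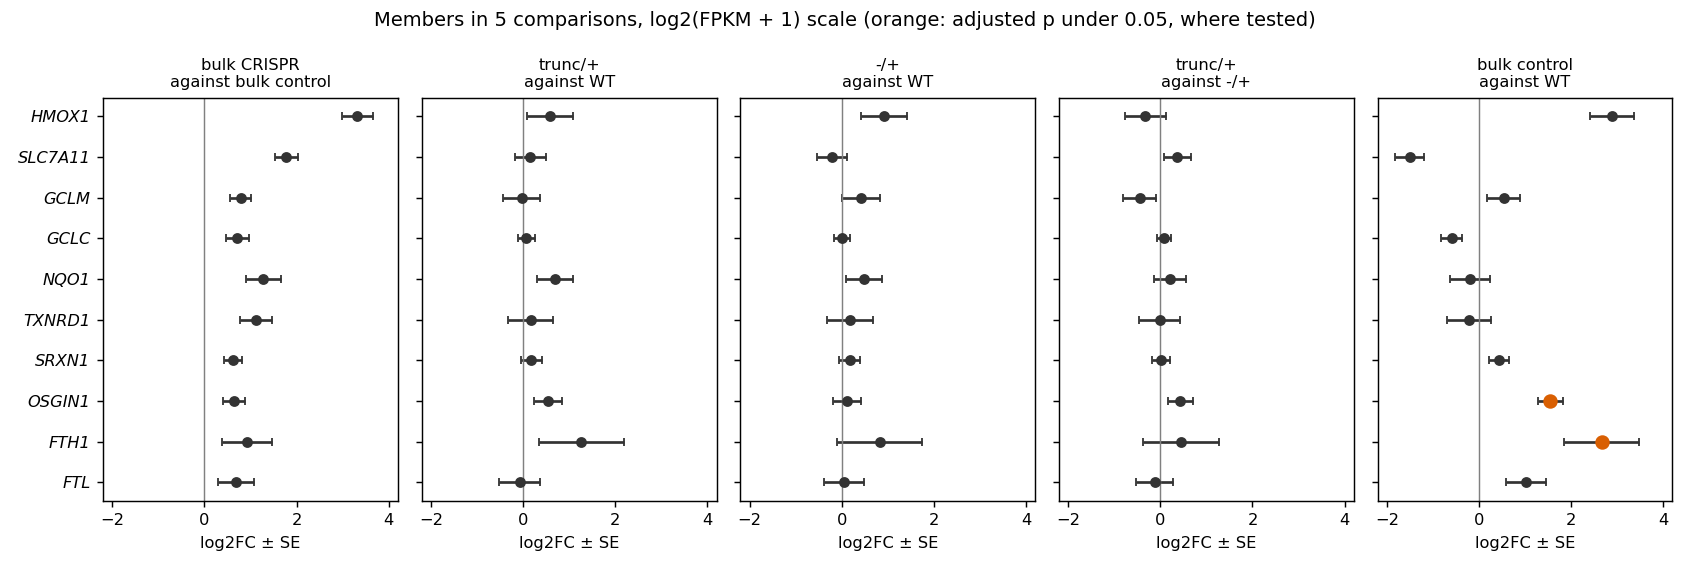
Log2FC with its standard error for the 10 genes in each of the 5 comparisons, on the log2(FPKM + 1) scale, with adjusted p under 0.05 in orange and no test for bulk CRISPR against bulk control or for HMOX1 and SLC7A11 in bulk control against WT. All 10 points lie right of 0 in the bulk comparison, from 0.63 to 3.31, none is orange among the clones, and OSGIN1 and FTH1 are orange in bulk control against WT.

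The clones were also ranked singly, each being 1 library, and no test set clones against genotypes. The highest of the 8 clones was trunc/+ 2 for 5 genes (GCLC, TXNRD1, OSGIN1, FTH1 and FTL) and -/+ 3 for 3 genes (HMOX1, GCLM and SRXN1). The lowest was trunc/+ 3 for 3 genes and WT 2 for 3 genes. FTH1 spanned most, with the highest clone at 11.8 times the lowest, followed by HMOX1 (4.21 times), OSGIN1 (3.64 times) and NQO1 (3.18 times), and GCLC spanned least (1.48 times). The 7744 FPKM of FTH1 in trunc/+ 2 lay within the range of the bulk controls, 2778 to 9684 FPKM, whereas HMOX1 in the same clone, at 13.7 FPKM, lay below all of them. As a share of TPM, however, FTH1 in trunc/+ 2, at 1.74%, lay above the bulk controls, at 0.619% to 1.51%. NQO1 had another top clone, -/+ 1 at 307 FPKM, which was low for HMOX1 and FTH1, while trunc/+ 2 and -/+ 3, at 209 and 171 FPKM, lay below its median of 222 FPKM over the 8 clones.

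**Figure D3:**
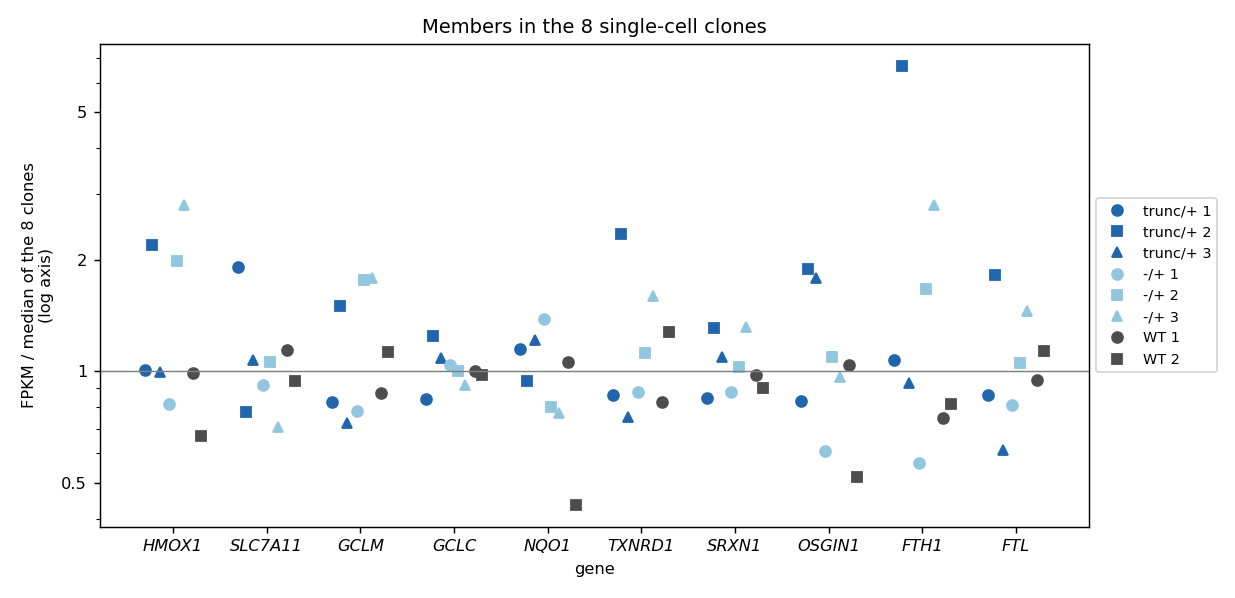
FPKM of each gene in each of the 8 single-cell clones divided by the median of the 8 clones, on a log axis, with colours for trunc/+, -/+ and WT and shapes for the clone number. Squares of trunc/+ (clone 2) and triangles of -/+ (clone 3) lie high for HMOX1, TXNRD1, FTH1 and FTL, and the spread runs from 1.48 times for GCLC to 11.8 times for FTH1.

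Cells without Z18 editing also differed in these genes between the bulk and the cloned state. Bulk control was compared with WT in a fit on all 14 libraries, and time in culture, selection and cloning cannot be told apart in that comparison. HMOX1 and SLC7A11, chosen on values that include these bulk controls, are given without a test. HMOX1 averaged 47.5 ± 22.4 FPKM in bulk control and 5.20 ± 1.43 FPKM in WT, a log2FC of 2.89 (SE 0.47). OSGIN1 averaged 4.98 ± 0.750 FPKM in bulk control and 1.07 ± 0.504 FPKM in WT (log2FC 1.55, SE 0.28, limma adjusted p = 0.00908). FTH1 averaged 6488 ± 3482 FPKM in bulk control and 907 ± 54.9 FPKM in WT (log2FC 2.66, SE 0.81, limma adjusted p = 0.0432). SLC7A11 had the opposite sign, with 3.06 ± 0.885 FPKM in bulk control and 10.3 ± 1.38 FPKM in WT (log2FC -1.50, SE 0.32).

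Of the other 8 genes 2 were thus called higher in bulk control, where 5.28% of all genes passed in that direction, and 0 lower, where 9.72% passed (limma, with 4 of the 8 at an unadjusted p under 0.05). By FPKM the groups did not overlap for 5 of the 8 that were higher in bulk control (background 16.1%) and for 1 that was lower, GCLC (background 29.0%). In TPM 2 of these overlapped. GCLM was at 23.2 TPM in bulk control 2 and 26.3 in WT 2, and SRXN1 at 51.8 TPM in bulk control 2 and 58.9 in WT 2. FTL (log2FC 1.02, limma adjusted p = 0.115), GCLM (0.54, adjusted p = 0.297) and SRXN1 (0.44, adjusted p = 0.176) had positive log2FC and did not pass. GCLC had a log2FC of -0.59 (limma adjusted p = 0.0902), and NQO1 and TXNRD1 overlapped between the groups, with log2FC of -0.20 and -0.21 (limma adjusted p = 0.771 and 0.767).

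These calls rested on few libraries. Without WT 2 the limma adjusted p of OSGIN1 was 0.0901. For FTH1 it was 0.0659 without bulk control 1, 0.118 without bulk control 2, 0.178 without WT 1 and 0.162 without WT 2. Conversely GCLC passed without bulk control 1 (adjusted p = 0.0197) and FTL without bulk control 3 (adjusted p = 0.0465). In a fit on the 5 libraries of both groups alone OSGIN1 and FTH1 did not pass (adjusted p = 0.0661 each). Bulk control is the partner of WT here and of bulk CRISPR above, so the values of the 2 comparisons share libraries: SLC7A11 had a log2FC of 1.78 in bulk CRISPR against bulk control and of -1.50 in bulk control against WT, while HMOX1 had 3.31 and 2.89.

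Ratios within a library set the inducible genes against a partner in the same pathway, on the FPKM scale. HMOX2 encodes the constitutive haem oxygenase. HMOX1 over HMOX2 was 6.10, 8.46 and 6.27 in bulk CRISPR, against 0.935, 0.383 and 0.610 in bulk control. By FPKM, HMOX1 was thus the higher of the pair in bulk CRISPR alone. The deposited mean coverage did not give that order. It was 33.6 or more for HMOX1 and 30.4 or less for HMOX2 in every library. The FPKM of HMOX2, and with it this ratio, is uncertain to that extent. In the clones the ratio was 0.0984 to 0.398. The ratio of GCLM, the modifier subunit, to GCLC was 2.10 ± 0.394 in bulk CRISPR and 2.05 ± 0.481 in bulk control, a difference smaller than the spread of either group, and 0.812 ± 0.232 in trunc/+, 1.27 ± 0.549 in -/+ and 0.865 ± 0.171 in WT. The ratio of FTH1 to FTL was 3.31 ± 0.239 in bulk CRISPR, 2.87 ± 0.612 in bulk control, 2.59 ± 1.60 in trunc/+, 1.70 ± 0.768 in -/+ and 0.910 ± 0.0603 in WT. It was highest of all libraries in trunc/+ 2, at 4.42.

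**Figure D4:**
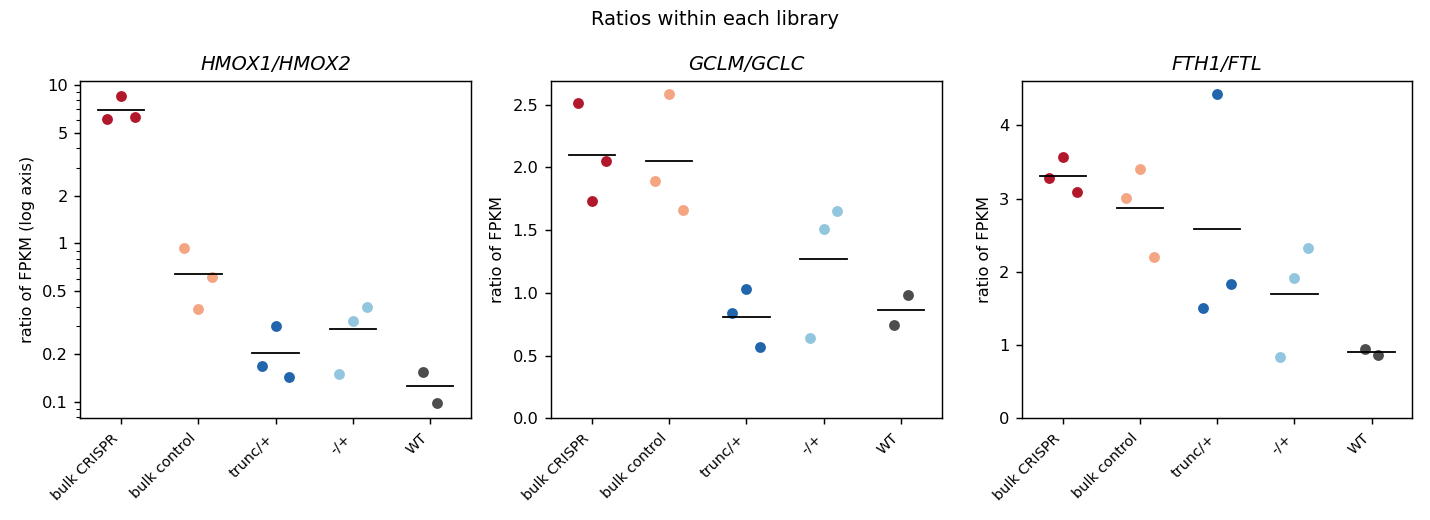
Ratio of FPKM within each library for HMOX1 to HMOX2 (log axis), GCLM to GCLC and FTH1 to FTL (axes from 0), with 1 point per library and the group mean as a bar, for bulk CRISPR, bulk control, trunc/+, -/+ and WT. By FPKM HMOX1 exceeds HMOX2 in bulk CRISPR alone, at 6.10 to 8.46, whereas by mean coverage it does so in every library. The means of GCLM to GCLC are 2.10 in bulk CRISPR and 2.05 in bulk control.

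The same libraries held signal inside the introns of the set, at annotated copies of transposable elements on the strand of the gene, which spliced RNA lacks. The study reported that RNA of most classes of transposable elements was higher in bulk Z18 CRISPR cells. Unspliced RNA of a gene and RNA of the copies themselves therefore cannot be told apart in this signal. The 32 copies in introns of HMOX1 gave 177, 375 and 193 estimated counts in bulk CRISPR, against 39, 43 and 14 in bulk control. In counts per 1000000 aligned fragments (CPM) this was 6.30, 12.02 and 6.02 in bulk CRISPR, against 1.46, 2.32 and 0.897 in bulk control, without overlap. In the clones it was at most 0.586 CPM, and 0 counts were found in trunc/+ 3, -/+ 2 and WT 2, which allows up to 0.107, 0.160 and 0.0931 CPM (3 counts, counting error only). The intron signal of HMOX1 was thus ordered as its FPKM was, with bulk CRISPR over bulk control over the clones.

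In SLC7A11, with 53 such copies, the intron signal did not separate the bulk groups, with 2.06, 4.39 and 1.69 CPM in bulk CRISPR, against 1.80, 1.46 and 0.768 CPM in bulk control. TXNRD1, with 101 copies, had 8.99, 10.8 and 10.0 CPM in bulk CRISPR, against 3.23, 5.94 and 10.2 CPM in bulk control. Its highest library was trunc/+ 2, at 17.9 CPM, which was also the clone with the highest TXNRD1 FPKM. Of the 9 genes with such copies, 3 had every bulk CRISPR library above every bulk control: HMOX1, FTH1 and OSGIN1. The share of other genes with that order at intron copies was not computed, and in FPKM 21.8% of all genes tested had it. This count is therefore not read as a trait of the set. FTH1, with 1 copy, gave 4.73, 6.60 and 5.06 CPM in bulk CRISPR, against 2.70, 2.91 and 2.82 CPM in bulk control. OSGIN1 gave 12, 33 and 13 estimated counts in bulk CRISPR, against 6, 5 and 0 in bulk control. FTL had no such copy. Summed over the set, intron copies gave 33.6 ± 5.91 CPM in bulk CRISPR, 17.7 ± 4.08 in bulk control, 19.5 ± 11.8 in trunc/+, 10.9 ± 1.94 in -/+ and 8.86 ± 0.900 in WT. No test was made of these sums, since the genes were chosen on the bulk comparison.

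**Figure D5:**
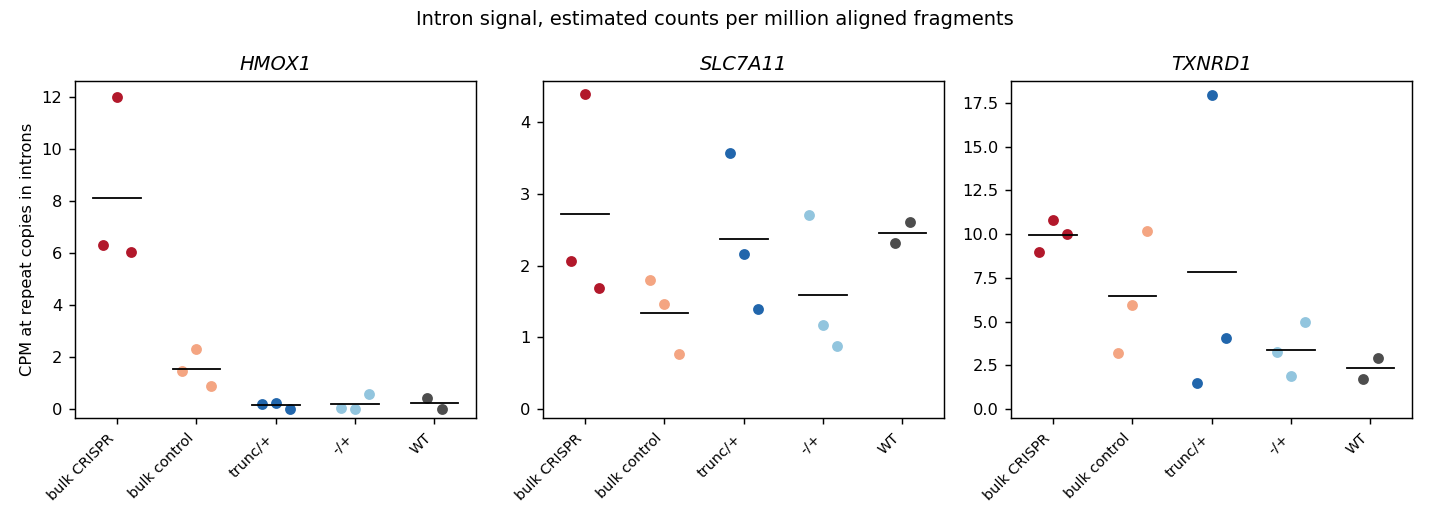
Estimated counts per 1000000 aligned fragments (CPM) at transposable element copies in the introns of HMOX1, SLC7A11 and TXNRD1, with 1 point per library and the group mean as a bar, for bulk CRISPR, bulk control, trunc/+, -/+ and WT. Intron signal of HMOX1 is 6.02 to 12.02 CPM in bulk CRISPR and 0.897 to 2.32 CPM in bulk control, while for SLC7A11 the bulk groups overlap.

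The genes that control NRF2 did not pass between the bulk groups. NFE2L2 itself, named outside the naming rule after its values were seen, averaged 40.3 ± 1.28 FPKM in bulk CRISPR and 28.7 ± 9.12 FPKM in bulk control (log2FC 0.53, SE 0.27, limma adjusted p = 0.286). It averaged 45.6 ± 6.32 FPKM in trunc/+, 46.2 ± 7.53 FPKM in -/+ and 47.7 ± 2.54 FPKM in WT. In the list of 12 control genes 0 passed between the bulk groups (limma), with 0 at an unadjusted p under 0.05, and the largest log2FC among those at 5 FPKM or more was that of the repressor BACH1, at 6.98 ± 0.855 FPKM in bulk CRISPR and 4.14 ± 2.84 FPKM in bulk control (log2FC 0.85, adjusted p = 0.328). Bulk control exceeded WT in 2 of the 12 and 0 were lower, beside 5.28% and 9.72% of all genes. SQSTM1, an autophagy receptor that binds KEAP1, averaged 749 ± 148 FPKM in bulk control and 153 ± 0.0961 FPKM in WT (log2FC 2.27, limma adjusted p = 0.0113), and KEAP1 averaged 37.7 ± 4.14 FPKM in bulk control and 23.2 ± 3.38 FPKM in WT (log2FC 0.68, limma adjusted p = 0.0292). The median log2FC of the 12 in that comparison was -0.46, beside -0.18 over all genes, and 5 were positive. At an unadjusted p under 0.05 (limma) 4 were higher and 3 lower. NFE2L2 had a log2FC of -0.76 (limma adjusted p = 0.0545) and BACH1 of -1.24 (limma adjusted p = 0.0670).

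Among the clones 0 of the 12 control genes passed (limma). At an unadjusted p under 0.05, 3 of them were higher in trunc/+ than in WT. SQSTM1 averaged 480 ± 290 FPKM in trunc/+, against 153 FPKM in WT (log2FC 1.45, limma adjusted p = 0.638). MAFG, a small MAF partner of NRF2, averaged 21.1 ± 3.03 FPKM in trunc/+, against 14.02 ± 0.890 FPKM in WT (log2FC 0.55, limma adjusted p = 0.559). The third was KEAP1, at 31.2 ± 1.73 FPKM in trunc/+, against 23.2 ± 3.38 FPKM in WT (log2FC 0.42, limma adjusted p = 0.656). In -/+ against WT 0 of the 12 had an unadjusted p under 0.05, and in trunc/+ against -/+ MAFG alone was higher at that level.

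Of 36 other NRF2 targets 30 were tested in the bulk cells. None passed (limma), but before adjustment 11 higher and 1 lower had a p under 0.05, as had 13.95% of all genes higher and 6.93% lower, and their median log2FC was 0.39, against 0.18 over all genes and 0.85 in the set. The drug exporter ABCC2 averaged 21.99 ± 4.604 FPKM in bulk CRISPR and 11.3 ± 5.09 FPKM in bulk control (log2FC 0.98, limma adjusted p = 0.191). Bulk control against WT gave 3 higher targets (TXN, BLVRB and NR0B1) and 1 lower (ABCC4) of 31 tested, beside 5.28% and 9.72% of all genes. TXN, or thioredoxin, averaged 1451 ± 774 FPKM in bulk control and 544 ± 53.9 FPKM in WT (log2FC 1.29, limma adjusted p = 0.0399), and BLVRB, a biliverdin reductase, averaged 32.8 ± 6.24 FPKM in bulk control and 14.4 ± 2.12 FPKM in WT (log2FC 1.12, limma adjusted p = 0.0263). Of 29 targets tested in the clones 0 passed (limma) in any of the 3 comparisons, with 1 higher at an unadjusted p under 0.05 in trunc/+ against WT, 0 in -/+ against WT and 1 higher and 1 lower in trunc/+ against -/+.

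The neighbours of the set in cystine, glutathione and peroxide handling were spread around 0. Of 26 tested 0 passed between the bulk groups (limma), where 6 higher and 1 lower had an unadjusted p below 0.05 (13.95% and 6.93% of all genes), and the median log2FC was 0.07. CHAC1, which degrades glutathione, averaged 22.7 ± 8.12 FPKM in bulk CRISPR and 7.46 ± 1.33 FPKM in bulk control (log2FC 1.44, limma adjusted p = 0.0930). GPX1, a glutathione peroxidase, averaged 733 ± 338 FPKM in bulk control and 237 ± 36.3 FPKM in WT (log2FC 1.54, limma adjusted p = 0.0132), and it was joined by TXN2 among the 2 higher genes, with CBS the 1 lower gene. These were the calls among 26 tested in bulk control against WT, beside 5.28% of all genes higher and 9.72% lower. In the clones 0 passed (limma), with an unadjusted p below 0.05 for 1 higher and 1 lower in trunc/+ against WT, 1 lower in -/+ against WT and 3 higher in trunc/+ against -/+.

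In haem and iron handling, 0 of 24 genes passed between the bulk groups (limma), with an unadjusted p below 0.05 for 3 higher and 3 lower, beside 13.95% and 6.93% of all genes, and a median log2FC of 0.32, beside 0.18 over all genes. ALAS1, which starts haem synthesis, averaged 80.1 ± 3.55 FPKM in bulk CRISPR and 31.5 ± 12.8 FPKM in bulk control (log2FC 1.38, limma adjusted p = 0.0930). The metal importer SLC39A14 averaged 27.99 ± 4.95 FPKM in bulk CRISPR and 10.4 ± 9.80 FPKM in bulk control (log2FC 1.88, limma adjusted p = 0.213). Bulk control against WT gave 2 higher genes, UROS and HMOX2, and 3 lower ones of 24 tested, beside 5.28% and 9.72% of all genes. The FPKM of HMOX2, and so this call, is uncertain, as stated above for its ratio. Among the lower genes were PCBP2, which delivers iron to ferritin (82.8 ± 40.6 FPKM in bulk control and 151 ± 23.1 FPKM in WT, log2FC -0.96, limma adjusted p = 0.0457), and FBXL5, which marks the iron regulatory protein IRP2 for degradation (log2FC -0.74, limma adjusted p = 0.0289). In the clones 0 passed (limma), with 0 at an unadjusted p under 0.05.

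SLC7A11 can also be induced through ATF4, the factor of the amino acid response. Of 17 other ATF4 targets 0 passed between the bulk groups (limma), with an unadjusted p below 0.05 for 3 higher and 0 lower, beside 13.95% and 6.93% of all genes, and the median log2FC was 0.35, beside 0.18 over all genes. ATF3 averaged 29.7 ± 9.13 FPKM in bulk CRISPR and 10.4 ± 3.998 FPKM in bulk control (log2FC 1.44, limma adjusted p = 0.105), and ASNS, asparagine synthetase, averaged 62.2 ± 2.56 FPKM in bulk CRISPR and 29.5 ± 5.69 FPKM in bulk control (log2FC 1.07, limma adjusted p = 0.0906). Bulk control against WT gave 1 higher gene, DDIT3, and 1 lower, PHGDH, of 18 tested, beside 5.28% and 9.72% of all genes. In trunc/+ against WT 0 of 18 passed (limma), and 7 were lower at an unadjusted p under 0.05, as were 3 in -/+ against WT and 2 in trunc/+ against -/+. Bulk control against WT also gave a called change in 3 marker lists, with SOX10 of the melanocyte lineage (16.6 ± 5.08 FPKM in bulk control and 147 ± 45.9 FPKM in WT) and PDGFRB of fibroblasts lower and KRT7 of epithelia higher, and the part of these differences in the levels of the set was not tested. The tested markers were 4 of the melanocyte lineage, 3 of fibroblasts and 4 of epithelia. The macrophage list had 1 gene tested and 0 called in every comparison, the erythroid list had 0 tested, and in the clones 0 markers of any list passed (limma), with CLDN4 alone at an unadjusted p under 0.05, lower in -/+ against WT and higher in trunc/+ against -/+.

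Over the 14 libraries, the genes whose log2(FPKM + 1) was most like that of HMOX1 among 13439 genes were CD24 (Pearson r = 0.978), GPRC5C (0.971), KRTAP2-4 (0.967), GLTP (0.962) and TIGAR (0.960). GPRC5C averaged only 1.27 FPKM in bulk CRISPR, 0.315 in bulk control, 0.00666 in trunc/+, 0.124 in -/+ and 0.0 in WT. KRTAP2-4 averaged 2.47, 0.873, 0.142, 0.149 and 0.00763 FPKM in the same order. Both thus passed the filter on low values through bulk libraries, so their likeness to HMOX1 is in part built in. Within the set, SRXN1 (0.947), OSGIN1 (0.932), FTL (0.899), GCLM (0.869) and FTH1 (0.861) were close to HMOX1, while TXNRD1 (0.535), NQO1 (0.327), GCLC (0.0434) and SLC7A11 (0.0143) were not. The genes most like SLC7A11 were RNF185 (0.936), LINC01138 (0.934) and SHC4 (0.923), and within the set GCLC (0.745) and NQO1 (0.586). These values describe 14 libraries that fall into a bulk block and a clone block and differ in depth, and they carry no test.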

How the data were processed

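A375 libraries were polyA-selected, stranded and paired-end. Groups were taken from the genotype labels of the samples. The submitters' processing notes name cutadapt 4.6. Per the study's methods the authors counted transposable element copies with SQuIRE on hg38. In the deposited tables each copy has an estimated count, in which multimapping reads were shared out by expectation maximization, and a unique count. The total count of fragments aligned in the library stands beside them. The gene tables, in the layout of StringTie output, hold FPKM, TPM and mean coverage as the authors deposited them, and the study's methods speak of RefSeq genes in SQuIRE output, without a release. FPKM and TPM hold no counts, so depth per gene was read from the deposited coverage, which ran from 5.46 (OSGIN1 in -/+ 1) to 101550 (FTH1 in bulk CRISPR 2).

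FPKM was summed per symbol. Tests used limma 3.58.1 (trend, R 4.3.3) on log2(FPKM + 1), which understates the change of low genes, with Benjamini-Hochberg adjustment over all genes tested and a threshold of 0.05. A gene was kept with 1 FPKM or more in 3 or more of the 6 bulk libraries, or in 2 or more of the 8 clones or of all 14 libraries, which left 12114, 12904 and 13439 genes. The 3 clone groups shared 1 estimate of the spread, because only 2 WT clones were at hand. The fits were also run on simulated data in which each gene had the same spread in all groups. In the real libraries the spread differed between groups, so the simulation does not check the p-values under that condition. CPM are estimated counts per 1000000 aligned fragments. Intron copies lay inside the gene, on its strand and outside GENCODE 44 exons.

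The members, the gene lists (NRF2 control, other NRF2 targets, cystine, glutathione and peroxide handling, haem and iron handling, ATF4 targets, interferon-stimulated genes and markers of 5 cell types) and the tests were chosen with earlier results of these data known. All 10 members were named, with up to 4 called genes of largest change per list and comparison, or up to 2 of at least 5 FPKM where none was called, and not all of these are printed, 1 of them being not reported here. The genes most like HMOX1 (5) and SLC7A11 (3) were named by Pearson r. Alternatives were a pseudocount of 0.1, no filter, TPM, quantile scaling, the replicate number as a block, other sets of libraries in the fit and each library left out.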

Additional observations from a re-analysis of the deposited data

How the results depend on the processing

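Between bulk CRISPR and bulk control 42 genes passed over all genes tested, and 20 with a pseudocount of 0.1, 16 with no filter, 26 with TPM, 73 with quantile scaling and 316 in a fit on all 14 libraries. Leaving out each library gave 4 to 1327 genes, and the 1327 came without bulk control 1. Over all genes the median log2FC of that comparison was 0.18 with FPKM, 0.29 with TPM and 0.03 with quantile scaling, and all 10 members kept a positive log2FC under every alternative run.

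In trunc/+ against WT and in -/+ against WT 1 gene passed each, and 0 with a pseudocount of 0.1, 3 with no filter, 0 in a fit on the 2 groups only and 0 to 1 with 1 library left out, while 0 members passed under every alternative run. Signs of small differences were not stable. GCLC in -/+ against WT, at -0.0036, was 0.020 with TPM and 0.0034 with quantile scaling, and TXNRD1 in trunc/+ against -/+, at -0.016, was 0.011 with quantile scaling. With 1 clone left out, log2FC in trunc/+ against WT ran from -0.17 to 0.43 for SLC7A11, -0.32 to 0.16 for GCLM, -0.043 to 0.22 for GCLC, -0.35 to 0.47 for TXNRD1 and -0.52 to 0.27 for FTL. In -/+ against WT it ran from -0.041 to 0.043 for GCLC, -0.16 to 1.11 for NQO1, -0.13 to 0.49 for TXNRD1, -0.14 to 0.36 for OSGIN1 and -0.17 to 0.25 for FTL. In trunc/+ against -/+ it ran from -0.79 to 0.017 for HMOX1, -0.040 to 0.22 for GCLC, -0.53 to 0.29 for TXNRD1, -0.14 to 0.17 for SRXN1, -0.47 to 0.95 for FTH1 and -0.57 to 0.22 for FTL, and the median of the members from -0.30 to 0.18.

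In bulk control against WT 2015 genes passed, 709 higher and 1306 lower, and the split was 847 to 909 with quantile scaling and 398 to 1520 with TPM. A fit on the 2 groups only gave 221 genes. Of the 8 members tested 2 passed, and 1 with no filter and 0 in the fit on the 2 groups only. Leaving out each library gave 51 to 3690 genes, the lowest without WT 2 and the highest without bulk control 1, and 0 to 3 members. With 1 WT clone left, its spread was assumed to be that of the other groups. With 1 library left out, NQO1 ran from -0.83 to 0.44 and TXNRD1 from -0.52 to 0.18. With no filter the limma adjusted p of FTH1 was 0.101.

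The deviations of same-numbered libraries correlated at -0.156, -0.197 and 0.167 between the bulk groups, at -0.069 and 0.374 between trunc/+ and WT, at 0.502 and 0.151 between -/+ and WT, at -0.032, -0.129 and -0.544 between trunc/+ and -/+ and at -0.084 and -0.001 between bulk control and WT. The numbers were not taken as pairs, since not every pair lay above 0.1 and, between -/+ and WT, there were only 2. With the replicate block, 220 genes passed in bulk CRISPR against bulk control, 0 in trunc/+ against WT, 0 in -/+ against WT and 1171 in bulk control against WT, and GCLC in -/+ against WT was 0.0058. With exonic copies included, the repeat copies inside the members gave 174 CPM in bulk CRISPR, 93.6 in bulk control, 102 in trunc/+, 88.6 in -/+ and 75.0 in WT. These sums hold the intron copies and add exonic ones, which can lie in spliced RNA. In bulk CRISPR SRXN1 alone gave 89.5 CPM with exonic copies and 0.548 CPM in introns. The cause of these and the other changes was not tested. Depth limits OSGIN1 in the clones and the intron copies most.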
